A study of Onthophagus taurus with 15 samples.

Results

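Legs of the horned dung beetle Onthophagus taurus were set against dorsal abdominal epithelium on 5 spotted arrays with 2 colours, out of 15 arrays in the series. The members of this comparison were the leg arrays lettered A to E, each with abdomen (A3 to E3) in the other channel, and all 3840 clones of the array, of which 3725 could be tested. The animals were large males from a laboratory colony, taken as pupae no more than 24 h after pupation. Every RNA sample pooled the tissue of 4 pupae, and legs and abdomen of 1 array came from the same pupae, per the labels. The other 10 arrays set head horn (5) or thoracic horn (5) against abdomen of such males in the same way. Legs were in Cy3 and abdomen in Cy5 on arrays A, C and E, and legs were in Cy5 and abdomen in Cy3 on arrays B and D. Before labelling, all RNA had been amplified with a T7-based method. The leg arrays thus set a jointed appendage against a patch of body wall without appendages at the start of the pupal stage.

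An insect leg is a tube of epidermis that secretes jointed cuticle around muscles, nerves, tracheae and blood cells. In insects the leg is laid out by appendage patterning genes such as Distal-less and dachshund, and the same genes are known from the growth of beetle horns. The dorsal abdominal epithelium forms no appendage, and in insects its segments are specified by the Hox genes Ultrabithorax and abdominal-A. In pooled tissue, more cells of a type and more RNA per cell cannot be told apart.

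The deposited values were read as log2 ratios already normalized by the authors. A positive value is likely legs over abdomen, because titles and design name the appendage first and it is always the first channel. The files do not settle this, and with the other direction every sign below would be turned. Ratios of leg arrays with opposite layouts ran in the same direction (correlations above 0), so no array's sign was changed here. None of the clone IDs (0 of 3840) matched the supplied gene table, so clones go by ID, and neither the tissue labels nor any gene list could be checked against marker genes. The number of genes behind a number of clones is unknown, since a transcript may be present as more than 1 clone.

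Of the 19200 leg cells of the table, 18595 held a value, and 3397 clones had a value on all 5 leg arrays. Leg array D had the most empty cells, 329, against 32 to 96 on the other leg arrays. The D arrays of head horn (295) and thoracic horn (321) likewise had the most empty cells of their tissue, so letter D stood apart in all 3 tissues. The SD of the log2 ratios over clones was 0.96 on array A, 1.05 on B, 1.19 on C, 1.27 on D and 0.90 on E, and the medians lay between 0.01 and 0.15. Of the 115 clones not tested, 23 had fewer than 3 leg values, and 92 lacked the values needed in a horn or a layout. By the plain mean of their leg values, 7 of those 115 lay at or below -2 and 7 at or above 2.

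Leg RNA differed from abdominal RNA in 1516 of the 3725 tested clones, 40.7%, by limma at an adjusted p under 0.05 (Benjamini-Hochberg). Positive ratios made up 846 of these calls (22.7% of the tested clones) and negative ratios 670 (18.0%). Small differences were mostly positive and large ones mostly negative. Among calls under 2-fold, 674 were positive and 389 negative. At 2-fold and more there were 172 positive calls (4.62%) and 281 negative calls (7.54%). At 4-fold and more there were 42 positive calls (1.13%) and 116 negative calls (3.11%), so that negative ratios made up 73.4% of the 158. At 8-fold and more there were 16 positive and 39 negative calls. At 16-fold and more there were 6 and 5, too few to read a balance from: on the leg arrays alone they were 4 and 6, and without the layout term 3 and 6.

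The excess of positive over negative calls depended on small shifts of the whole distribution. The fitted leg ratio had a median of 0.08 on the log2 scale over all tested clones, and with each array centred on its median the calls were 747 positive and 753 negative. The calls at 4-fold and more were then 38 positive and 120 negative. The lower tail of fitted ratios reached further than the upper one. The 1st and 5th percentiles were -3.04 and -1.51, against 2.13 and 1.08 for the 99th and 95th, and the middle of the distribution ran between -0.28 and 0.43 (quartiles). When limma tested each ratio against a 2-fold difference rather than against 0, 47 positive and 164 negative clones were called.

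**Figure D1:**
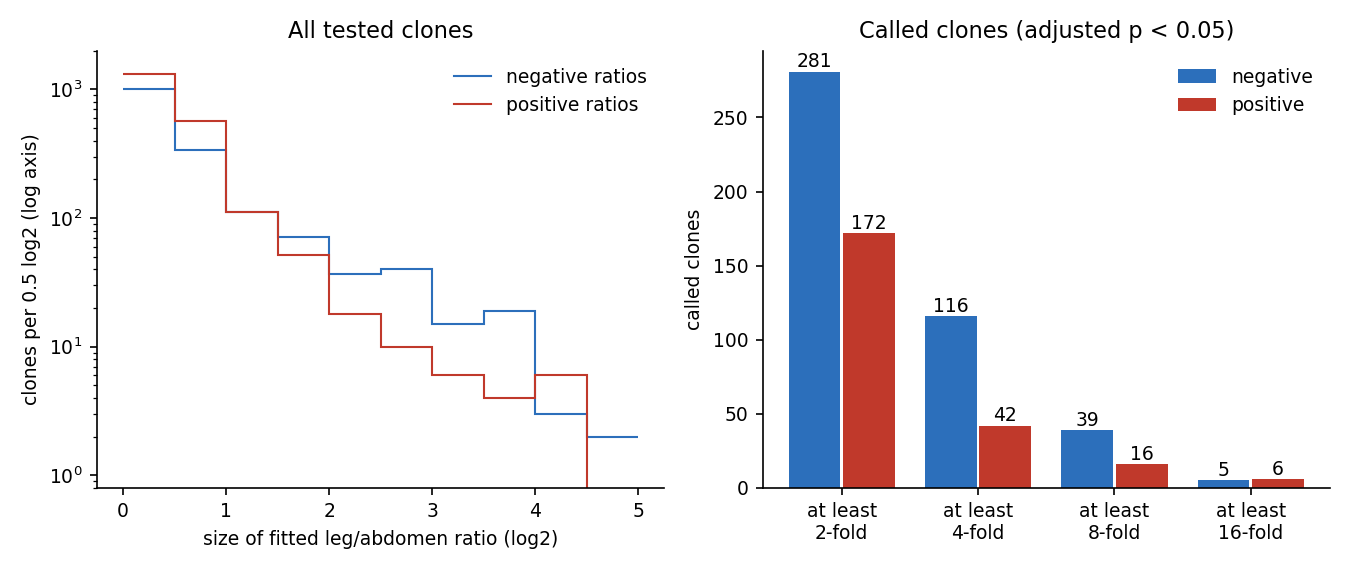
Left, number of tested clones (log axis) by the size of the fitted log2 ratio of legs to abdomen, in bins of 0.5, for negative and positive ratios. Right, called clones past each fold. Positive ratios are the more frequent below 1 on the log2 scale; negative ratios are the more frequent from 1.5 to 4, with 116 negative against 42 positive calls at 4-fold and more.

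Clones were called more often the larger their ratio, as the test is built to do. Of 1383 clones with a fitted size under 0.25 (log2), 0.868% were called, against 43.3% of the 928 between 0.25 and 0.5 and 71.5% of the 908 between 0.5 and 1. From 1 to 2, 85.3% of 346 clones were called, and 98.1% of the 105 between 2 and 3. All 55 clones of 8-fold and more were called. The median SD over the leg arrays was 0.31 for the smallest ratios and 0.50 for those of 8-fold and more, so ratios of that size exceeded the spread between arrays.

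Leg arrays agreed best within a dye layout. Over clones, Pearson's r was 0.69 to 0.72 in the 4 pairs of arrays of the same layout and 0.36 to 0.50 in the 6 pairs of opposite layout; these are descriptions over clones of 1 array design, which are not independent replicates. The share of clones with the same sign was 73.2% to 76.3% within a layout and 64.4% to 72.0% across layouts. C and D, the arrays with the widest spread, were the pair with the lowest Pearson correlation.

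Called clones mostly kept their sign on every leg array. Of 1493 called clones with 5 leg values, 1274 (85.3%) had the same sign on all 5 arrays. The shares were 84.7% for positive and 86.1% for negative calls. Over all 3382 tested clones with 5 leg values the share was 44.1%. The calls were made from these same values, so agreement among called clones is in part built in. At 4-fold and more, all 113 negative clones with 5 values were negative on every array, and 37 of the 40 positive ones were positive on every array. The exceptions, named after their values were seen, were OtL016-G03, OtP002-C12 and OtP005-C05, each negative on array E alone (-0.06, -0.07 and -0.84). Strongly negative clones also varied less, with a median SD of 0.45 over the leg arrays, against 0.70 for positive clones of 4-fold and more and 0.34 for all tested clones. On every single leg array, 73 clones lay at or beyond 4-fold in the negative direction and 17 in the positive direction; at 2-fold these counts were 175 and 48.

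Strongly positive clones differed more between the layouts than strongly negative ones. The median of the 42 positive clones of 4-fold and more was 2.20 over arrays A, C and E and 3.20 over arrays B and D. The corresponding medians of the 116 negative clones were -2.64 and -2.87. Calls were made from the leg values themselves, which favours like signs in both layouts. Means of both layouts had the same sign in 1487 of the 1516 called clones, and in 157 of the 158 called clones of 4-fold and more. The remaining clone, OtP002-H10, had 3 leg values, 0.75 on A, 3.20 on C and -7.14 on D, and its fitted value of -2.28 ± 0.64 (SE) has the opposite sign to arrays A and C. Dye layout cannot be told apart from the animals of letters B and D.

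In the fit over all 15 arrays, the layout term was called in 848 clones (22.8%; limma, adjusted p under 0.05), with 354 positive and 494 negative, where positive means a higher ratio with the appendage in Cy3. Both the layout term and the leg ratio were called in 334 clones. That is 22.03% of the leg calls, near the 22.8% of all tested clones. The layout is the same for all arrays of a letter, and arrays of 1 letter correlated between tissues. The 15 arrays are therefore not independent for this term, its p-values are likely too small, and the count of 848 is a description. Fitted on the leg arrays alone, the layout term was called in 4 clones by limma and had an unadjusted p under 0.05 in 516 of 3792. Those 4, OtL002-F07, OtP002-F06, OtP002-F12 and OtP002-G07, all came from plates whose numbers end in 002.

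The largest layout terms sat on 2 plates. Clone IDs have the form of a plate and a well, and all 53 clones with a layout term of 2 or more (log2) came from OtL002 (29 clones) and OtP002 (24 clones), in well rows E to H. In rows F to H of these plates 27 of 30 and 23 of 24 tested clones were among them, and no clone of the array had a layout term of -2 or less. Their median leg values were 1.58 on A, 3.13 on C and 2.02 on E, against -1.53 on B and -3.88 on D. The sign of these clones turned between letters A, C and E and letters B and D, which differ in dye layout and in animals, and they entered the far tails of single arrays while only 1 of them, OtP002-H10, was called in legs. Empty leg cells made up 10.8% of these plates and 2.75% of the others. Without both plates the fit called 1474 of 3556 clones, with 40 positive and 109 negative calls at 4-fold and more.

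**Figure D2:**
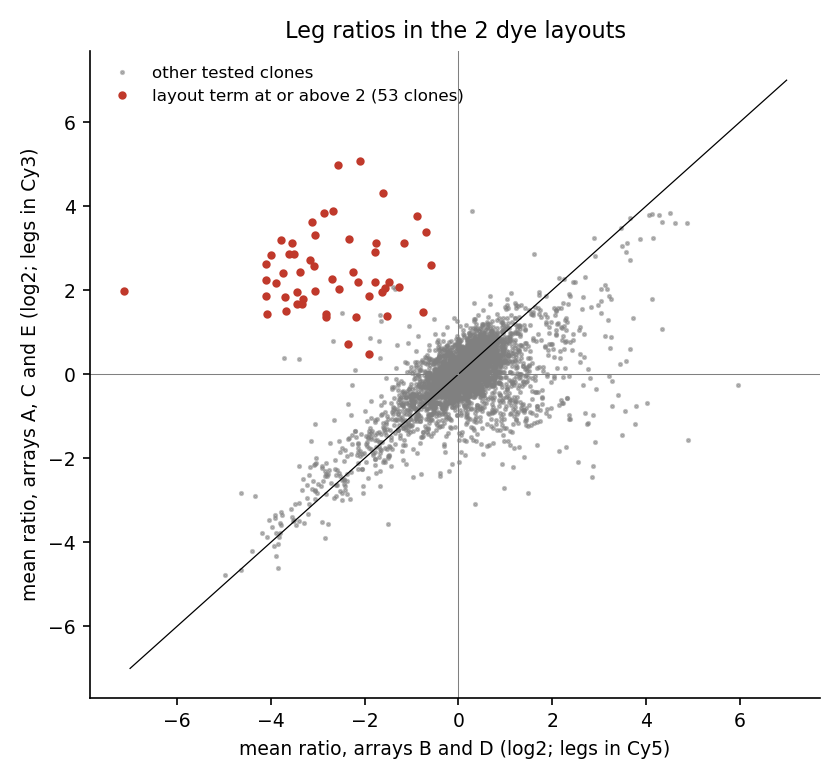
Mean log2 ratio of legs to abdomen over arrays A, C and E (vertical axis, legs in Cy3) against the mean over arrays B and D (horizontal axis, legs in Cy5), 1 point per tested clone with values in both layouts, with the line of equality. Strongly negative clones lie near the line; the 53 clones with a layout term of 2 or more form a separate cloud with opposite signs in the layouts.

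The surplus of strongly negative clones was also counted on each array by itself, from all clones with a value. At -2 or below and at 2 or above there were 141 and 74 clones on leg array A, 141 and 136 on B, 235 and 114 on C, 223 and 135 on D, and 125 and 67 on E. The surplus was thus 67 on A, 5 on B, 121 on C, 88 on D and 58 on E, positive on all 5 arrays, with array B near 0. It averaged 67.8 ± 42.7 clones (SD, n = 5), with a two-sided exact sign-flip permutation p of 0.0625, the smallest that 5 arrays allow. Without plates OtL002 and OtP002 the surplus was 86 on A, -14 on B, 155 on C, 25 on D and 81 on E. Array B then had more strongly positive clones, and the two-sided exact sign-flip permutation p was 0.125. Arrays A, C and E (legs in Cy3) then each exceeded B and D (legs in Cy5). Head horn (88, -86, 66, -38 and 34 on A to E) and thoracic horn (40, -26, 62, -31 and 68) were split in the same way.

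Against the horns, the surplus was larger in legs by a margin that did not hold up under all settings. The head horn arrays had surpluses of 55, -62, 5, 8 and -12 (A to E; mean -1.2 ± 42.1, SD, n = 5) and the thoracic horn arrays 14, -3, 13, 14 and 24 (mean 12.4 ± 9.71, SD, n = 5). The leg mean exceeded the head horn mean by 69 clones and the thoracic horn mean by 55.4, with an adjusted two-sided exact permutation p of 0.0397 for both. The adjusted exact permutation p was 0.0714 without leg array A, C or D, 0.0635 without E and 0.0159 without B. It was 0.619 at a 2-fold threshold, 0.230 at 8-fold, 0.254 without plates OtL002 and OtP002, and 0.05 for both when arrays were permuted within their dye layout, which is not under the threshold. Without those plates and permuted within layout, it was 0.05 against head horn and 0.0333 against thoracic horn. Arrays of the same letter were also compared, since the letters paired the arrays. Legs exceeded head horn by 12 on A, 67 on B, 116 on C, 80 on D and 70 on E, and thoracic horn by 53, 8, 108, 74 and 34, on 5 of 5 letters in both, with an adjusted two-sided exact sign-flip permutation p of 0.0625, the smallest that 5 pairs allow. Without plates OtL002 and OtP002 the paired difference was positive on 4 of 5 letters against head horn (-2 on A) and on 5 of 5 against thoracic horn. In the fitted ratios at 4-fold and more, head horn had 82 positive and 82 negative calls and thoracic horn 49 and 58. At 2-fold and more, negative calls led in the horns too, with 192 positive and 268 negative in head horn and 145 and 220 in thoracic horn. Under 2-fold, positive calls led in the horns as in legs, with 500 and 448 in head horn and 496 and 437 in thoracic horn. The differences from the leg counts in these fitted ratios were not tested.

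**Figure D3:**
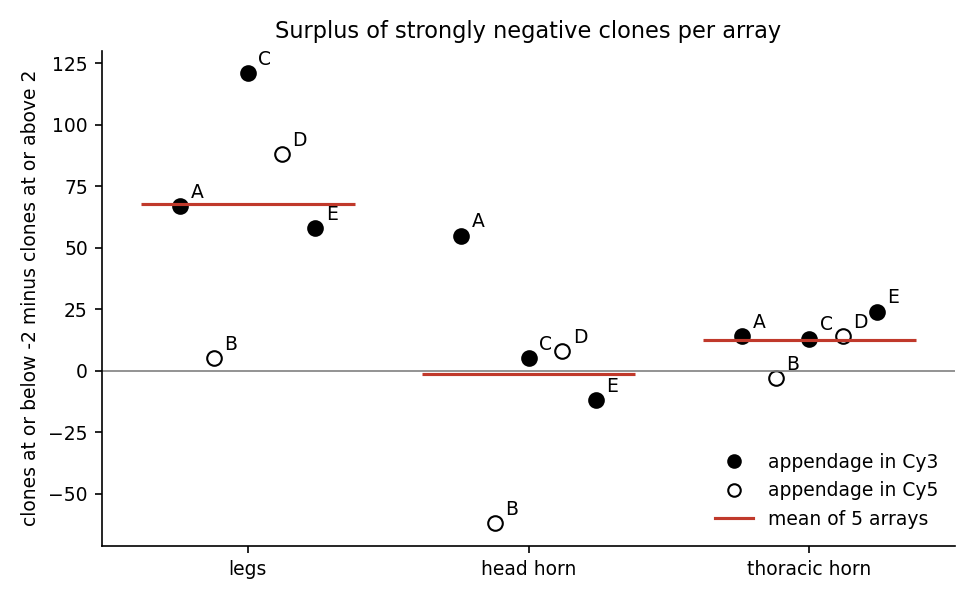
Number of clones at or below -2 minus the number at or above 2 (log2), for each array of legs, head horn and thoracic horn (letters A to E). Filled points are arrays with the appendage in Cy3, open points arrays with it in Cy5, and lines are means of 5 arrays. The leg arrays lie between 5 and 121, the head horn arrays between -62 and 55, and the thoracic horn arrays between -3 and 24; the groups overlap.

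The surplus lay mainly among clones with the prefix OtL. Both prefixes name 1920 clones, and what the prefixes stand for is not given in the sources used here. Of the OtL clones, 877 of 1885 tested were called, with 19 positive and 79 negative at 4-fold and more. Of the OtP clones, 639 of 1840 tested were called, with 23 positive and 37 negative at 4-fold and more. Per leg array the 4-fold surplus averaged 58.6 ± 32.2 among OtL and 9.2 ± 18.0 among OtP clones (SD, n = 5). OtL was higher by 49.4 ± 30.0 (SD) and on 5 of 5 arrays, with a two-sided exact sign-flip permutation p of 0.0625, again the smallest possible. By array, the OtL surplus was 75 on A, 4 on B, 82 on C, 77 on D and 55 on E, and the OtP surplus was -8, 1, 39, 11 and 3. Array B had nearly as many strongly positive as strongly negative clones under both prefixes. These counts per array include plates OtL002 and OtP002 and are not given by prefix without them. Without both plates the surplus of all clones was -14 on B and 25 on D, against 5 and 88 with them.

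The excess was spread over plates and did not sit on a few of them. Negative calls of 4-fold and more outnumbered positive ones on 18 of the 20 OtL plates and equalled them on the other two. On the OtP plates they were more numerous on 12, fewer on 5 and equal on 3. Plates OtL013, with 10 negative and 0 positive, and OtL006, with 9 and 1, had the most negative calls of this size. Plate OtP013 had 5 positive and 2 negative calls of 4-fold and more.

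The highest leg ratio among clones of 1 sign on all 5 arrays was that of OtL006-D08. It had 3.07 on A, 4.94 on B, 4.24 on C, 4.82 on D and 3.52 on E, with a fitted log2 ratio of 4.24 ± 0.21 (SE; 18.8-fold; limma, adjusted p 1.04e-08). The clones OtL009-F10 (3.08, 4.73, 4.71, 4.31 and 3.72 on A to E), OtL012-B01 (3.21, 4.78, 4.23, 4.45 and 3.39) and OtP013-D03 (2.97, 4.54, 4.51, 4.16 and 3.42) had nearly the same values array by array. In these 4 clones array A was lowest, E next, and B highest. The fitted values of the last 3 were 4.18 ± 0.32, 4.11 ± 0.23 and 4.03 ± 0.36 (SE).

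Those 4 clones were also high in both horns, at 3.27 to 3.67 in head horn and 3.10 to 3.39 in thoracic horn, and none of the 8 differences between legs and a horn was called (limma, adjusted p 0.0516 to 0.636). The fit behind these differences does not pair arrays of 1 letter. Letter by letter, legs exceeded thoracic horn in each of the 4 clones. Legs exceeded head horn on every letter in OtL006-D08 and OtL012-B01, but not on A in OtL009-F10 or on B in OtP013-D03. Calls with a letter block were counted over all clones (below) and not read for these 4. The other 6 of the 10 highest were not called in either horn. OtP013-D04 had 3.25, 4.76, 3.55, 3.81 and 4.57 on leg arrays A to E, against -0.95, 1.77, -3.65, -0.62 and -0.96 in head horn and 0.23, -0.84, -0.38, 0.09 and -1.89 in thoracic horn. Its fitted leg ratio was 4.09 ± 0.49 (SE), and it exceeded head horn by 4.87 and thoracic horn by 4.55 (limma, adjusted p 0.00152 and 0.00147). No leg array overlapped any horn array for this clone.

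OtP014-A08 had 3.22, 4.51, 3.73, 3.73 and 4.50 on leg arrays A to E, with a fitted ratio of 4.05 ± 0.60 (SE). Its horn values ran between -3.04 and 3.65 in head horn and between -0.999 and 0.65 in thoracic horn, so head horn array B (3.65) reached into the leg range. OtP013-D01 (3.48 to 4.52 in legs), OtP005-A01 (3.31 to 4.17), OtL003-A11 (3.15 to 4.05) and OtP001-H02 (3.27 to 3.78) did not overlap with any horn array. The head horn values of OtP013-D01 spread between -3.75 and 2.08, while those of OtP001-H02 stayed between -0.86 and 0.73. OtL003-A11 had only 3 head horn values, -0.71, -2.57 and 0.06. OtP001-H02 was the most even of the 10 highest, with an SD of 0.20 over the leg arrays around a fitted 3.48 ± 0.20 (SE; adjusted p 2.56e-08, limma). In these 6 clones the SE of the leg ratio carries the spread of the horn arrays too, since the fit shares 1 estimate of the spread.

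The lowest leg ratio was that of OtL011-A04. It had -4.91 on A, -4.98 on B, -5.49 on C, -4.96 on D and -3.92 on E, with a fitted log2 ratio of -4.90 ± 0.26 (SE; 29.8-fold; limma, adjusted p 1.49e-08). OtL004-F05 had -3.91, -4.89, -6.79, -4.39 and -3.24 on A to E and a fitted -4.64 ± 0.39. In both clones array C was lowest and E highest. The next, OtL013-B11, was more even, with -4.33, -4.26, -4.55, -4.53 and -3.75 and a fitted -4.29 ± 0.22 (adjusted p 1.04e-08, limma).

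The other 7 of the 10 lowest had fitted ratios between -4.20 and -3.82. OtL002-A12 (-4.20), on plate OtL002 but in row A, had -3.93, -3.95, -5.47, -3.73 and -4.42 on A to E, of 1 sign in both layouts. OtL006-A08 had -4.11, OtP014-G08 -4.00, OtL015-C02 -3.97, OtL010-A03 -3.91, OtP012-D09 -3.86 and OtP019-B01 -3.82. On single leg arrays the 10 lowest clones lay between -6.79 and -3.09. OtP012-D09 had the smallest SD of any called clone of 4-fold and more, 0.14, with -3.97, -3.69, -3.89, -3.97 and -3.72 on A to E. The next smallest SD, 0.18, was that of OtL008-G06, with -2.36, -2.68, -2.70, -2.29 and -2.49 and a fitted -2.49 ± 0.13 (SE).

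**Figure D4:**
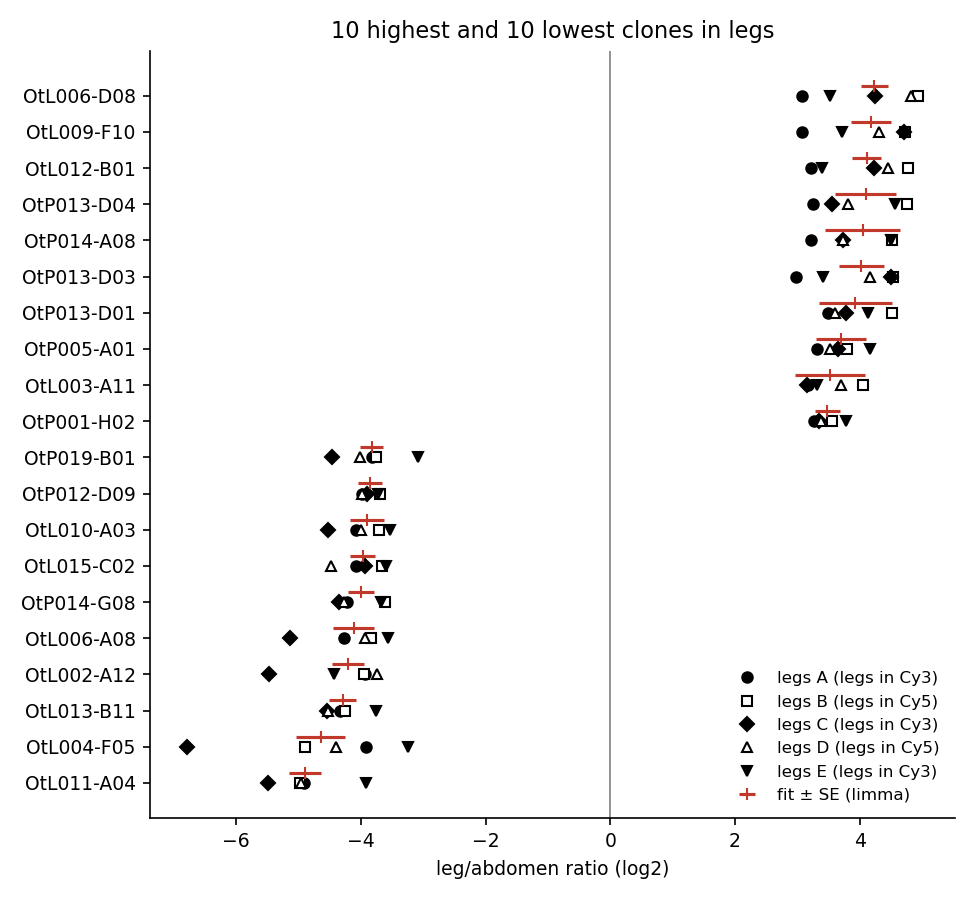
Log2 ratio of legs to abdomen on each of the 5 leg arrays (symbols) for the 10 highest and 10 lowest clones of 1 sign on all arrays, with the fitted value and its SE in red. Filled symbols are arrays with legs in Cy3, open symbols arrays with legs in Cy5. No value lies closer to 0 than 2.97 on the positive and -3.09 on the negative side.

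All 10 lowest leg clones were also low in both horns. Their fitted ratios were -4.19 to -2.51 in head horn and -3.94 to -2.42 in thoracic horn, and each was called in both (limma, adjusted p under 0.05). The difference between legs and head horn was called in 1 of the 10, OtL002-A12 (-1.69 ± 0.37, SE; limma, adjusted p 0.0201). The difference between legs and thoracic horn was called in 3, OtL013-B11 (-1.05), OtP012-D09 (-1.26) and OtP019-B01 (-1.40). The leg ratio was the lowest of the 3 tissues in every one of the 10. These clones were named for their low leg ratios, which favours this order, so it is a description. The other 16 of the 20 differences did not pass the test, which does not pair arrays of 1 letter.

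Over all 116 negative clones of 4-fold and more in legs, the median ratio was -2.65 in legs, -2.29 in head horn and -1.89 in thoracic horn. Over the 42 positive ones it was 2.56 in legs, 1.87 in head horn and 1.86 in thoracic horn. The medians over all tested clones were 0.08, 0.04 and 0.03. These sets were chosen by their leg ratios, so the more extreme leg medians are a description. Of the 116, 17 were called lower in legs than in head horn and 45 lower than in thoracic horn, against 3.14% and 5.50% of all tested clones. Of the 42, 14 were called higher than in head horn and 16 higher than in thoracic horn, against 3.41% and 5.88% of all tested clones. The choice by leg ratio enters these counts too, so nothing is read from them.

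Over all tested clones, legs differed from head horn in 244 (6.55%), 127 higher and 117 lower in legs, and from thoracic horn in 424 (11.4%), 219 higher and 205 lower (limma, adjusted p under 0.05). With the letter as a random replicate block these counts were 752 and 952, and with a fixed block 813 and 977. The counts were 106 and 222 without leg array A, 137 and 276 without C, 103 and 272 without D, and, against head horn, 153 without E. Without the layout term they were 112 and 219.

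**Figure D5:**
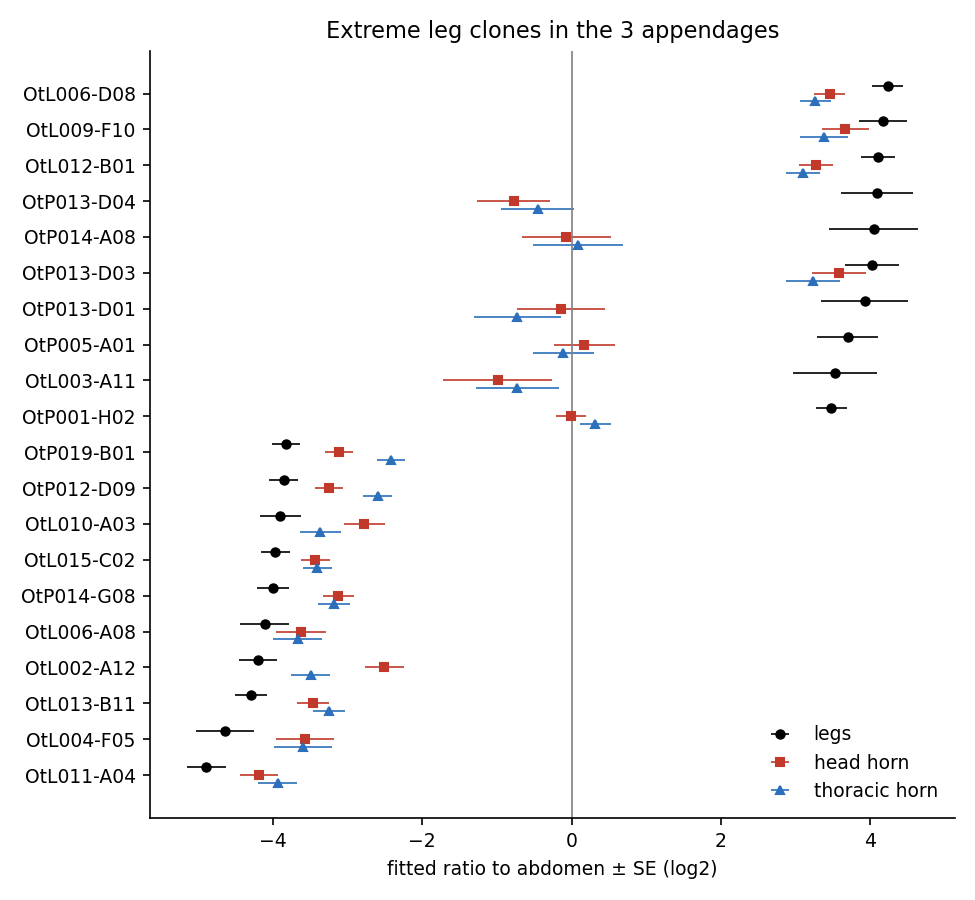
Fitted log2 ratio to abdomen with its SE in legs, head horn and thoracic horn for the 10 highest and 10 lowest leg clones. The 10 lowest clones were low in all 3 tissues; of the 10 highest, 4 were high in all 3 and 6 lay between -0.99 and 0.32 in both horns.

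The rule asked for clones called in legs, called against both horns in the same direction and called in neither horn. By it, 60 of the 3725 tested clones stood apart in legs, 50 on the positive and 10 on the negative side. A horn ratio that was not called need not lie near 0. At 2-fold and more in legs the clones that stood apart were 14 and 4. The count of 60 depended on the fit: it was 23 without leg array A or D, 35 without C, 26 without the layout term, 187 with a random and 146 with a fixed replicate block. The 10 on the negative side were 4 without A, D or E and 19 with each array centred on its median. OtP013-D04 and OtP014-A08 had the highest leg ratios among them. The lowest were OtL018-H03, with -1.37, -2.26, -2.96, -2.04 and -1.97 on leg arrays A to E, and OtL017-G01, with -1.44, -1.32, -1.38, -2.41 and -1.67. The fitted ratio of OtL018-H03 was -2.14 ± 0.28 in legs, -0.51 ± 0.28 in head horn and -0.24 ± 0.28 in thoracic horn (SE). That of OtL017-G01 was -1.71 ± 0.26 in legs, 0.21 ± 0.26 in head horn and 0.63 ± 0.26 in thoracic horn.

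Some large values did not hold between arrays. Among called clones with 5 leg values, OtL012-C11 had the widest spread, with 0.57, -1.37, 1.02, -5.42 and -0.50 on A to E, an SD of 2.57. Its fitted -1.48 ± 0.47 (SE; limma, adjusted p 0.0254) was -0.74 without array D (adjusted p 0.144) and -1.30 without E (adjusted p 0.0805), not called in either, and over A, C and E alone it was 0.36. OtL014-H05 had 0.05, 6.02, 3.0004, 2.65 and 0.16, with a fitted 2.61 ± 0.63, and over A, C and E alone it was 1.07 and not called. The largest ratios not called were those of OtP020-F07 (2.63 ± 0.97, SE; adjusted p 0.0564, limma), with 2.62, 0.29 and 5.16 on A, B and E, and OtP020-D05 (2.26 ± 0.88), with -0.44, 5.96 and -0.07 on A, D and E. Each had only 3 leg values, and 1 of the 3 was far above the others in OtP020-D05.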

How the data were processed

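Per the labels, RNA of each tissue pool was amplified, labelled with Cy3 or Cy5 and hybridised with abdominal RNA of the same animals. The deposited table held 1 log2 ratio per clone and array, normalized by the authors with limma, per the submitters' processing notes. Not given in the sources used here were the log base (base 2 is limma's scale), the methods of background correction and normalization, and the reason for the 1799 empty cells. No scanner file was read, so dim and bright spots could not be told apart. Precision is limited by the number of arrays.

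Clones with at least 3 values per tissue, in both dye layouts, were fitted with limma 3.58.1 (R 4.3.3) over all 15 arrays: 1 coefficient per tissue and 1 dye layout term, eBayes, Benjamini-Hochberg over all 3725 clones, threshold 0.05. Differences between tissues came from the same model written anew for each. The counts per array were compared by exact permutation tests. The procedure was tested on simulated data, drawn with independent noise on every array. That test does not cover the correlation between arrays of 1 letter. The 5 leg arrays were taken as separate pools of animals. Arrays of 1 letter in different tissues may share animals, which the labels do not settle.

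The clones named were the 10 highest and 10 lowest called clones of 1 sign on all leg arrays. Added to them were the 2 highest and 2 lowest that stood apart from both horns, and the 2 largest ratios not called. Among called clones with 5 leg values, the 2 of largest SD were named. So were the 2 of 4-fold and more with the smallest SD. Exceptions named outside this rule were chosen after their values were seen. The members and the rules were chosen with earlier results of these data known.

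Deviations from the tissue means correlated between legs and horn arrays of the same letter, at 0.44 to 0.68 in all 10 pairs (0.38 to 0.48 within a dye layout; 3182 clones). The letters were therefore taken to pair the arrays, by the data only; the labels do not say that arrays of 1 letter share animals. Alternatives changed the arrays in the fit, the layout term, centring, scaling, filter, block and moderation.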

Additional observations from a re-analysis of the deposited data

Results flagged for a closer look

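Leg array D had 329 empty cells, far from the 32 to 96 of the other leg arrays; head horn array D (295) and thoracic horn array D (321) had a like excess, so it goes with letter D and not with legs. It was the 1 result found to stand apart in 34 tests of this kind on the leg arrays, and chance alone gives about 1 in 20.

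The surplus of strongly negative over strongly positive clones per array was larger in legs than in head horn by 69 and larger than in thoracic horn by 55.4 (adjusted exact permutation p 0.0397 for both). The call against both horns was lost under several settings, among them the removal of plates OtL002 and OtP002.

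Differences between legs and a horn were called by limma in 22 of the 54 tests on the 27 named clones, against 6.55% and 11.4% of all tested clones. Of the 22, 8 were fixed by the naming rule, which asked for both calls in 4 clones, and most other clones were named for extreme leg ratios, so the count is a description. On the positive side, legs exceeded head horn and thoracic horn by 4.87 and 4.55 in OtP013-D04, by 4.12 and 3.96 in OtP014-A08, by 4.07 and 4.65 in OtP013-D01, by 3.53 and 3.81 in OtP005-A01, by 4.52 and 4.25 in OtL003-A11, and by 3.49 and 3.16 in OtP001-H02 (log2). On the negative side, the difference of legs minus head horn was -1.63 and that of legs minus thoracic horn -1.90 in OtL018-H03. These differences were -1.92 and -2.34 in OtL017-G01 and -0.83 and -0.75 in OtL008-G06. Against head horn alone the difference was called in OtL002-A12 (-1.69). Against thoracic horn alone it was called in OtL013-B11 (-1.05), OtP012-D09 (-1.26) and OtP019-B01 (-1.40).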

How the results depend on the processing

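Counts of leg calls without 1 leg array were 1289 (without D) to 1390 (without B), with 695 to 800 positive and 586 to 624 negative; at 4-fold and more they were 35 to 45 positive and 107 to 120 negative. Letters A, C and E alone gave 994 calls, 512 of them positive, and letters B and D alone gave 741, with 337 positive and 404 negative, both from fewer arrays. Against a 2-fold difference, limma called 47 positive and 164 negative clones. The other settings kept the counts of leg calls within 1.5 times. The 5 leg arrays alone gave 1185 calls in 3792 clones. A fixed replicate block gave 1840 calls in 3631 clones and a random one 1474. Legs minus head horn and legs minus thoracic horn gave 112 and 219 calls without the layout term, 752 and 952 with the random replicate block, 813 and 977 with the fixed one, and 103 to 217 and 222 to 396 without 1 leg array; the cause was not tested.

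The mean surplus per leg array, 67.8, was 54.5 to 83.5 without 1 leg array, 16.6 at 8-fold and 9.2 for OtP clones alone. Its excess over head horn and thoracic horn was 55.7 to 84.7 and 42.1 to 71.1 without 1 leg array, and both calls were lost without A, C, D or E. They were also lost at 2-fold (27.8 and 27.6), at 8-fold (32.6 and 21), for OtP clones alone (8 and 6.2) and without plates OtL002 and OtP002 (53.8 and 44). Permuted within dye layout, the values of 69 and 55.4 had an adjusted exact p of 0.05, and without those plates 53.8 against head horn had 0.05. Compared between arrays of the same letter (replicate block), the adjusted exact p was 0.0625 for 69 and 55.4, the smallest possible, and 0.125 for 53.8 and 44 without the plates. The settings by prefix, plate, layout and letter pairs were chosen after seeing the data.

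Of 440 values of named clones under the alternatives, 431 kept direction and call, 6 lost the call, 2 gained it and 1 reversed, OtL012-C11 at 0.36 on letters A, C and E alone; the cause was not tested. limma's own scaling could not be used on ratios, so each array was divided by its relative median absolute deviation.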

Other observations

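Some of the extreme leg clones had nearly the same values on all 15 arrays. OtL006-D08 and OtL012-B01 differed by a root mean square of 0.24 on the log2 scale, and both differed from OtP013-D03 and OtL009-F10 by 0.41 to 0.46. OtL013-B11 and OtL015-C02, on the negative side, differed by 0.33. OtP013-D04 and OtP014-A08, high in legs and not called in the horns, were each other's nearest clones but differed by 0.82. Among the called clones of 4-fold and more with a value on every array, 93 of 110 negative ones and 20 of 36 positive ones had another clone of their set within 0.5, with medians of 0.35 and 0.43 to the nearest one. The nearest clone was sought within each set and the negative set is larger, so the shares of the sets cannot be compared. Whether such clones hold the same transcript could not be read from the files used here.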
